A study of Mus musculus with 11 samples.

Results

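The 2′-5′-oligoadenylate synthetase (OAS) family was examined in RNA sequencing of whole lacrimal glands from male NOD mice. Its members here were 8 genes of the estimated count table, taken by name: *Oas1a*, *Oas1b*, *Oas1c*, *Oas1g*, *Oas2*, *Oas3*, *Oasl1* and *Oasl2*, out of 19058 genes. All 8 passed the filter on low counts, together with 13929 other genes. The glands came from 3 WT NOD mice, 5 *Tlr7* KO NOD mice, whose edited allele carries a 2 base-pair deletion, and 3 *Ifnar1* KO NOD mice (NOD.*Ifnar1*em16/em16). Each mouse gave 1 gland and 1 library. WT and *Tlr7* KO mice were 20 to 22 weeks old, and for the *Ifnar1* KO mice only the overall range of the study's animals, 8 to 30 weeks, was found. Both knockouts are constitutive, so they remove the receptor from leukocytes and gland cells alike, and each line descends from a single edited allele. The study set aside a further *Ifnar1* KO mouse because it clustered with WT and its gland was inflamed like WT glands. That mouse was not analysed here, so the *Ifnar1* KO group had already been selected by its expression profile.

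OAS enzymes bind double-stranded RNA and join ATP into 2′-5′-linked oligoadenylates. These short oligomers act as a second messenger of the antiviral response, which ends in the decay of viral and cellular RNA and so limits protein synthesis. OAS genes are induced by type I interferon, which signals through IFNAR1 and IFNAR2, the kinases JAK1 and TYK2, and transcription factors that include STAT2 and IRF9. TLR7 is an endosomal receptor for single-stranded RNA in plasmacytoid dendritic cells, B cells and macrophages, and it triggers interferon production. NOD males develop autoimmune inflammation of the lacrimal gland, the setting in which these transcripts were measured.

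All members lie on mouse chromosome 5, in a pair of clusters on the annotation used (GENCODE M21, GRCm38). *Oasl2* (chr5:114896936-114912234) and *Oasl1* (chr5:114923240-114937915) are neighbours on the plus strand. The other cluster holds *Oas2* (chr5:120730333-120749853), *Oas3* (chr5:120753098-120777661), *Oas1c* (chr5:120800194-120812514), *Oas1b* (chr5:120812635-120824163), *Oas1g* (chr5:120876142-120887613) and *Oas1a* (chr5:120896256-120907521), all on the minus strand except *Oas1b*. GENCODE lists *Oas1b* as a polymorphic pseudogene and the others as protein coding. *Oas1a* and *Oas1g* are close copies: of the 31-base words in *Oas1a* transcripts, 68.7% also occur in *Oas1g* transcripts, and 54.6% of those of *Oas1g* occur in *Oas1a*. Reads from these shared stretches could be assigned to either gene, so their separate levels are uncertain. *Oas2*, *Oas3* and *Oasl2* shared no such word with another OAS gene. Of the other *Oas1* copies in the annotation, *Oas1d*, *Oas1e*, *Oas1f* and *Oas1h*, none is listed in the first table, and in the second table no library had more than 3 counts of any of them.

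Interferon-induced promoters often carry the interferon-stimulated response element, to which transcription factors activated by type I interferon bind. Its core was searched as GAAA, any 2 bases and GAAA again, on both strands (TTTC, any 2 bases and TTTC on the other), in RefSeq promoter windows of GRCm38.p6 that run from 250 bases before to 50 bases after each start. Of 32851 such windows, 3.44% held a match. Among the 6 members with a window, *Oas1a*, *Oas1c*, *Oas1g* and *Oas3* held one. *Oas1b* and *Oas2* had no window in the table. The 130 bases before the start are shown for the 4 genes with a match and for *Oasl1*, which has none, since these members are compared across the knockouts in what follows. Capitals mark the matches, and the first of each overlapping pair runs into the second.
*Oas1a*, chr5:120907526-120907655, minus strand: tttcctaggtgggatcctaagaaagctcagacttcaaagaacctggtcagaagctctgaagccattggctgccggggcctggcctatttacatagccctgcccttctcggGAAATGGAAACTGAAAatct
*Oas1g*, chr5:120887614-120887743, minus strand: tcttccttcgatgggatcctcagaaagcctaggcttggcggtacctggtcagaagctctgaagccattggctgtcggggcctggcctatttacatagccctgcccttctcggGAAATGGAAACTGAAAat
*Oas1c*, chr5:120812515-120812644, minus strand: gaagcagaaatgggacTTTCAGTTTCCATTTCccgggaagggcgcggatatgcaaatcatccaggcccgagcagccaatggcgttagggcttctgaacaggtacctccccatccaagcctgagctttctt
*Oas3*, chr5:120777660-120777789, minus strand: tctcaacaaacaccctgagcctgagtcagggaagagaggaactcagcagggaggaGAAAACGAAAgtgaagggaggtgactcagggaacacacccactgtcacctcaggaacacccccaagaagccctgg
*Oasl1*, chr5:114923110-114923239, plus strand: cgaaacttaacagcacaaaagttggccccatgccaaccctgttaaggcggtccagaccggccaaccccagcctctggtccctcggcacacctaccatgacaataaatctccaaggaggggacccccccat

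In *Oas1a* and *Oas1g* a pair of overlapping matches stands close to the start, from base -20 to -5 in *Oas1a* and from -18 to -3 in *Oas1g*. Over the 80 bases just before that pair, aligned on it, the 2 windows were 91.2% identical. *Oas1c* holds an overlapping pair in the opposite orientation, from base -114 to -99, and *Oas3* a single match from -75 to -66. The *Oas1c* pair also lies shortly before the annotated start of *Oas1b* (chr5:120812635, plus strand). Read on that strand, it has the same letters as the pair in *Oas1a*. *Oas1b* had no window of its own, so it was not counted among the members with a match. The windows of *Oasl1* and *Oasl2* hold none, which says only that these letters are not there.

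Libraries had 20512315 to 28814250 counts in all, and TMM factors ran from 0.692 to 1.48. In WT 2 and *Tlr7* KO 5, the 10 most abundant genes took 65.8% and 65.9% of the counts, against 54.0% to 59.5% elsewhere. The targeted genes were still transcribed. *Tlr7* was at 2.39 ± 0.746 CPM (counts scaled to library size with TMM factors, mean ± SD) in WT (n = 3), 0.776 ± 0.175 in *Tlr7* KO (n = 5) and 0.563 ± 0.289 in *Ifnar1* KO (n = 3). *Ifnar1* was at 13.5 ± 2.53, 9.54 ± 1.08 and 9.02 ± 0.625 CPM in the same order, so its transcript does not tell the knockouts apart. Gland epithelial markers were abundant in every library, with 1067 to 1329 CPM summed over 10 genes in WT, 1564 to 1621 in *Tlr7* KO and 1574 to 1766 in *Ifnar1* KO. Sums over 16 leukocyte markers were 587 to 879 CPM in WT, 277 to 377 in *Tlr7* KO and 265 to 516 in *Ifnar1* KO. *Jchain* of plasma cells alone gave 88.5 to 145 CPM of this in *Tlr7* KO and 190 to 352 in *Ifnar1* KO. None of the 16 was at 0 in every mouse of a group, and 3 of the 16 were at 0 in some *Ifnar1* KO mouse. Muscle markers (*Acta1*, *Ckm*, *Tnnt3*) summed to 204 CPM in WT 1, 138 in WT 2 and 155 in *Tlr7* KO 4, against at most 5.94 in the other libraries. The sum over 4 adipocyte markers was 2.93 to 31.1 CPM. No gene of either list was DE with TMM scaling and all mice kept. Without *Tlr7* KO 4, 3 muscle markers were DE and lower in *Tlr7* KO than in WT. Without WT 3, 2 were DE and lower in *Ifnar1* KO. With scaling by library size only, *Tnnt3* was DE and lower in *Ifnar1* KO (edgeR adjusted p = 0.0430). When libraries were scaled by their size alone, the all-gene median (log2) shifted from -0.037 to -0.54 for *Tlr7* KO, from -0.017 to -0.31 for *Ifnar1* KO and from 0.0011 to -0.19 between the knockouts. This also turned the split of genes lower and higher in *Tlr7* KO from 2431 and 2135 to 4275 and 122, in *Ifnar1* KO from 1735 and 942 to 1289 and 51, and in *Tlr7* KO relative to *Ifnar1* KO from 121 and 129 to 118 and 52.

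WT glands expressed the whole family at low to moderate levels. Per kilobase of annotated exon, *Oas1a* stood highest at 3.38 ± 1.33 CPM (mean ± SD, n = 3), followed by *Oasl2* at 2.28 ± 1.26. *Oasl1* came next at 0.932 ± 0.560 CPM per kilobase, then *Oas1b* (0.684 ± 0.482), *Oas1g* (0.629 ± 0.272), *Oas2* (0.522 ± 0.396), *Oas1c* (0.480 ± 0.0816) and *Oas3* (0.333 ± 0.276). Each neighbouring pair in this order overlapped between mice, so the order is that of the means. On this per-length scale *Oas1a*, *Oasl2* and *Oasl1* also led in *Tlr7* KO, at 4.80 ± 1.56, 1.27 ± 0.728 and 0.799 ± 0.406 (n = 5), and there every *Oas1a* value lay above every *Oasl2* value. In *Ifnar1* KO *Oas1a* (0.459 ± 0.465) and *Oasl2* (0.242 ± 0.138) still led (n = 3).

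Values for each mouse are given in CPM, scaled with TMM factors, in the order of the mouse numbers. *Oas1a*, an active synthetase, was at 8.51, 3.62 and 7.0 CPM in the WT mice. It reached 7.89, 14.1, 8.77, 6.77 and 7.65 CPM in *Tlr7* KO, and 0.478, 1.87 and 0.251 CPM in *Ifnar1* KO. Every *Ifnar1* KO gland lay below every other gland, while WT and *Tlr7* KO overlapped. *Oas1g*, its close copy, followed the same pattern with 1.53, 0.809 and 2.08 CPM in WT, 1.95, 2.04, 1.48, 1.24 and 1.94 CPM in *Tlr7* KO, and 0.102, 0.449 and 0 CPM in *Ifnar1* KO. The 0 of *Ifnar1* KO 3 allows up to 0.125 CPM, the level of 3 counts in that library.

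*Oas1b*, whose full-length form protects mice against flaviviruses, was at 1.87, 0.256 and 1.97 CPM in WT. *Tlr7* KO glands had 1.19, 1.82, 0.645, 0.826 and 0.577 CPM of it and *Ifnar1* KO glands 0.307, 0.523 and 0.251 CPM. WT 2 lay within the *Ifnar1* KO range, so these groups overlapped. *Oas1c*, a member without synthetase activity, was the steadiest in WT at 1.12, 0.979 and 1.37 CPM. Its *Tlr7* KO values were 0.651, 0.867, 0.873, 0.537 and 1.47 CPM, and those of *Ifnar1* KO 0.102, 0.411 and 0.167 CPM, with no overlap between *Ifnar1* KO and WT.

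*Oas2*, which carries a pair of synthetase units, was at 2.17, 0.639 and 4.16 CPM in WT and at 0.536, 2.12, 1.10, 0.743 and 0.944 CPM in *Tlr7* KO. None of the 3 *Ifnar1* KO libraries held a count of *Oas2*, which allows up to 0.102 to 0.125 CPM at 3 counts per library. These limits cover counting error only. *Oas3*, the longest synthetase, was at 2.48, 0.341 and 4.24 CPM in WT, 0.689, 1.82, 0.911, 0.454 and 1.52 CPM in *Tlr7* KO, and 0.0341, 0.411 and 0.0418 CPM in *Ifnar1* KO. The gland of *Ifnar1* KO 2 exceeded that of WT 2, so WT and *Ifnar1* KO overlapped for this gene.

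*Oasl1*, an OAS-like protein without synthetase activity that restrains the translation of *Irf7*, was at 3.80, 0.894 and 2.60 CPM in WT. It was at 1.68, 3.81, 2.09, 0.950 and 1.89 CPM in *Tlr7* KO and held a narrow range of 0.478, 0.486 and 0.418 CPM in *Ifnar1* KO. *Oasl2*, an OAS-like protein with synthetase activity, was at 17.8, 5.37 and 20.5 CPM in WT. In *Tlr7* KO it was at 4.75, 15.8, 5.92, 4.91 and 9.07 CPM, and in *Ifnar1* KO at 1.54, 2.43 and 0.669 CPM. For both genes the *Ifnar1* KO mice were below all others. WT 2 was the lowest WT mouse for 8 of 8 members, *Tlr7* KO 2 the highest of its group for 7 of 8, and *Ifnar1* KO 2 the highest of its group for 7 of 8. WT 2 was low beyond the family too. Its sum over 21 other interferon-stimulated genes was 101 CPM, against 255 in WT 1 and 301 in WT 3. Over 15 leukocyte markers without *Jchain* it was 245 CPM, against 561 and 445. Its sum over gland epithelial markers was the highest of WT, at 1329 CPM. The part of these differences was not tested.

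**Figure D1:**
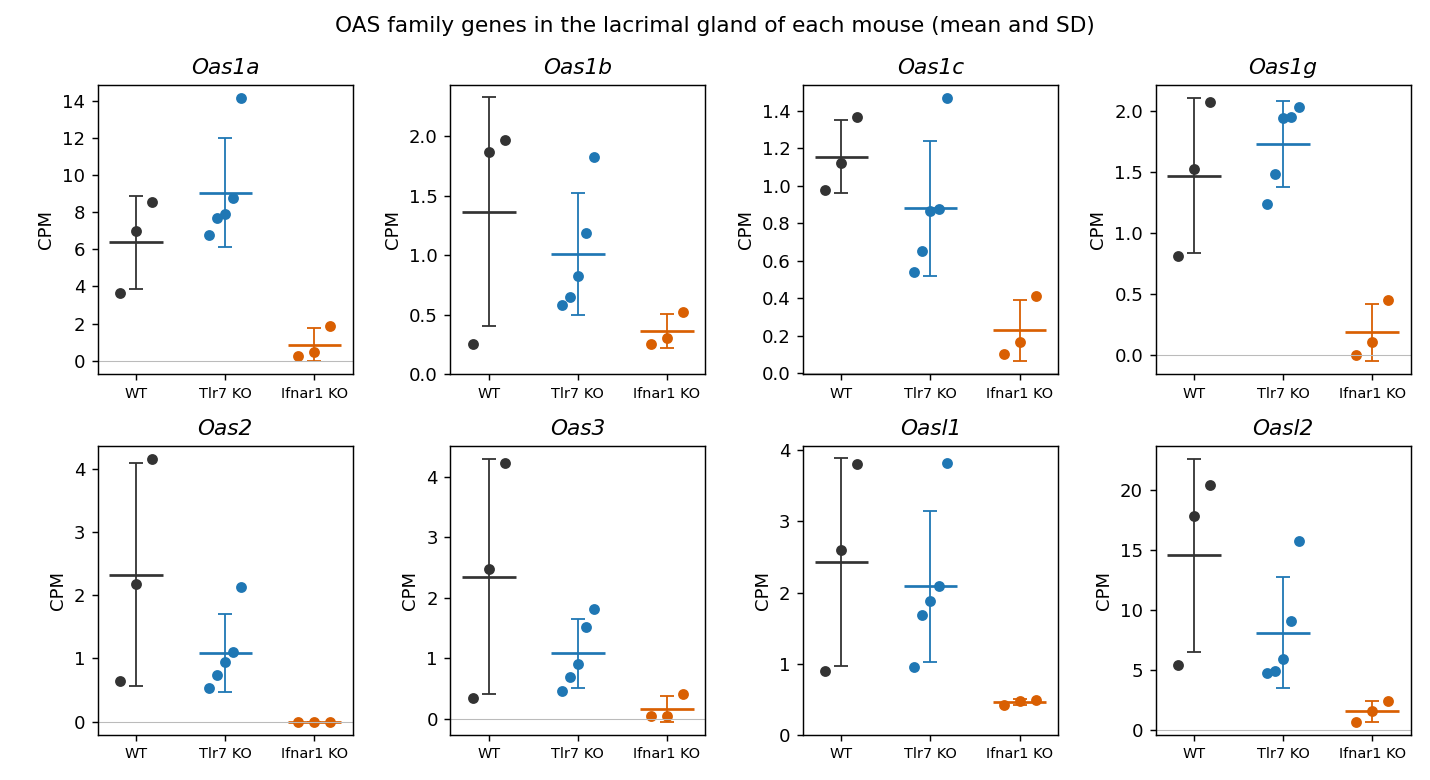
TMM-scaled CPM (vertical axis, linear, a separate range per gene) of each OAS family gene in every WT, *Tlr7* KO and *Ifnar1* KO mouse (points), with the group mean (horizontal line) and SD (bars). The *Ifnar1* KO mean lies lowest in every panel, with points overlapping WT only in *Oas1b* and *Oas3*, while WT and *Tlr7* KO overlap in all 8.

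WT and *Ifnar1* KO glands were compared to ask which members depend on type I interferon signalling. All 8 were lower in *Ifnar1* KO, and 7 of 8 were differentially expressed (DE, adjusted p under 0.05) in edgeR's quasi-likelihood test, with p-values adjusted by Benjamini-Hochberg over the 13937 genes that passed the filter. Among the 13937 genes tested, 12.4% were DE and lower in *Ifnar1* KO and 6.76% were DE and higher. The members' median log2 fold change was -2.95, the same with *Oas2* set at its bound, against -0.017 over all genes. In whole glands, fewer cells of a type and less RNA per cell cannot be told apart.

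Members of the *Oas1* group fell by 2.91 ± 0.662 on the log2 scale for *Oas1a* (± SE, adjusted p = 0.0284 by edgeR), by 2.36 ± 0.516 for *Oas1c* (adjusted p = 0.0265) while *Oas1g* had -2.998 ± 0.853 and was DE too (adjusted p = 0.0482). *Oas1b* had -1.95 ± 0.723, with a 95% interval of -3.65 to -0.26, and did not pass (edgeR adjusted p = 0.0942). *Oas2* was at least 20.5-fold lower in *Ifnar1* KO, taking each library at its limit of 3 counts (edgeR adjusted p = 0.0235). *Oas3* fell by 3.87 ± 1.09 (edgeR adjusted p = 0.0464). Among the OAS-like genes, *Oasl1* fell by 2.42 ± 0.534 (adjusted p = 0.0267) and *Oasl2* by 3.26 ± 0.598 (adjusted p = 0.0230 by edgeR). In linear terms *Oasl2* was 9.59-fold, *Oas1a* 7.49-fold and *Oasl1* 5.37-fold lower. With 1 mouse left out at a time, *Oasl2* ran from 7.61-fold to 13.2-fold lower and *Oasl1* from 3.86-fold to 7.04-fold. *Oas1a* ran from 5.65-fold to 17.3-fold, *Oas1g* from 5.55-fold to 25.3-fold and *Oas1c* from 3.92-fold to 8.57-fold, each highest without *Ifnar1* KO 2. *Oas3* ran from 8.75-fold without WT 3 to 57.7-fold without *Ifnar1* KO 2. The bound of *Oas2* was 12.4-fold without WT 3 and 19.6-fold to 27.9-fold when any 1 of the other mice was left out.

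In 6 of 8 members all *Ifnar1* KO mice were below all WT mice, against 21.2% of all genes tested. The count of DE members fell to 0 when WT 1, WT 3, *Ifnar1* KO 1 or *Ifnar1* KO 3 was left out, where 13, 121, 0 and 0 genes of all those tested remained DE. It was 8 without WT 2 and 6 without *Ifnar1* KO 2, where 20.2% and 8.26% of all genes were DE and lower, and all 8 members were lower each time. Leukocyte markers moved with the family: 10 of 16 were DE and lower in *Ifnar1* KO and none was higher, with summed levels of 587 to 879 CPM in WT and 265 to 516 CPM in *Ifnar1* KO. That count rose to 14 without WT 2 but was 0 when any 1 of WT 1, WT 3, *Ifnar1* KO 1 and *Ifnar1* KO 3 was dropped. Their part in the members' differences was not tested.

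WT and *Tlr7* KO glands were compared to ask the same for TLR7. None of the 8 members was DE between them by edgeR's quasi-likelihood test, none had an unadjusted p under 0.05, and DESeq2 called none. In this comparison 17.4% of all genes were DE and lower in *Tlr7* KO and 15.3% were DE and higher. The members' median log2 fold change was -0.43 against -0.037 over all genes. WT and *Tlr7* KO mice overlapped for every member, whereas 14.5% of all genes were lower in every *Tlr7* KO mouse than in any WT mouse.

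By estimate, the members differed among themselves. *Oas3* had a log2 fold change of -1.16 ± 0.645 (± SE, 95% interval -2.61 to 0.29, edgeR adjusted p = 0.193) and *Oas2* -1.12 ± 0.559 (-2.37 to 0.14, edgeR adjusted p = 0.151). *Oasl2* had -0.86 ± 0.481 (-1.94 to 0.22, edgeR adjusted p = 0.194), *Oas1b* -0.45 ± 0.571, *Oas1c* -0.41 ± 0.328 and *Oasl1* -0.24 ± 0.485. *Oas1a* and *Oas1g* had positive estimates of 0.49 ± 0.306 (-0.19 to 1.18, edgeR adjusted p = 0.241) and 0.21 ± 0.308 (-0.48 to 0.90), which turned to -0.085 and -0.38 with scaling by library size only. These intervals leave room for changes above 2-fold in *Oas1b*, *Oas2*, *Oas3*, *Oasl2*, *Oas1c*, *Oas1a* and *Oasl1*, so the comparison does not show equal levels.

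The count of 0 changed when WT 2 was left out and with scaling by library size only. Without WT 2, *Oas2*, *Oas3* and *Oasl2* were DE and lower in *Tlr7* KO, at -1.55 (adjusted p = 0.0183), -1.66 (adjusted p = 0.0127) and -1.26 (adjusted p = 0.0288, edgeR). Of all genes, 24.9% were then DE and lower, so 3 of 8 is not far above that share. Without WT 3 their estimates were -0.39, -0.42 and -0.53, and none was DE. Over all alternatives their adjusted p ran from 0.0183 to 0.666, 0.0127 to 0.699 and 0.0288 to 0.540. *Oas1a* was not among them, and *Oas1g* had -0.074. The same 3 members were DE and lower with scaling by library size only, where 30.7% of all genes were, so 3 of 8 is close to that share. Leukocyte markers were lower in *Tlr7* KO as well: 12 of 16 were DE and lower (6 without WT 1, 7 without WT 3) and none was higher, with 587 to 879 CPM in WT and 277 to 377 CPM in *Tlr7* KO. Their part was not tested.

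**Figure D2:**
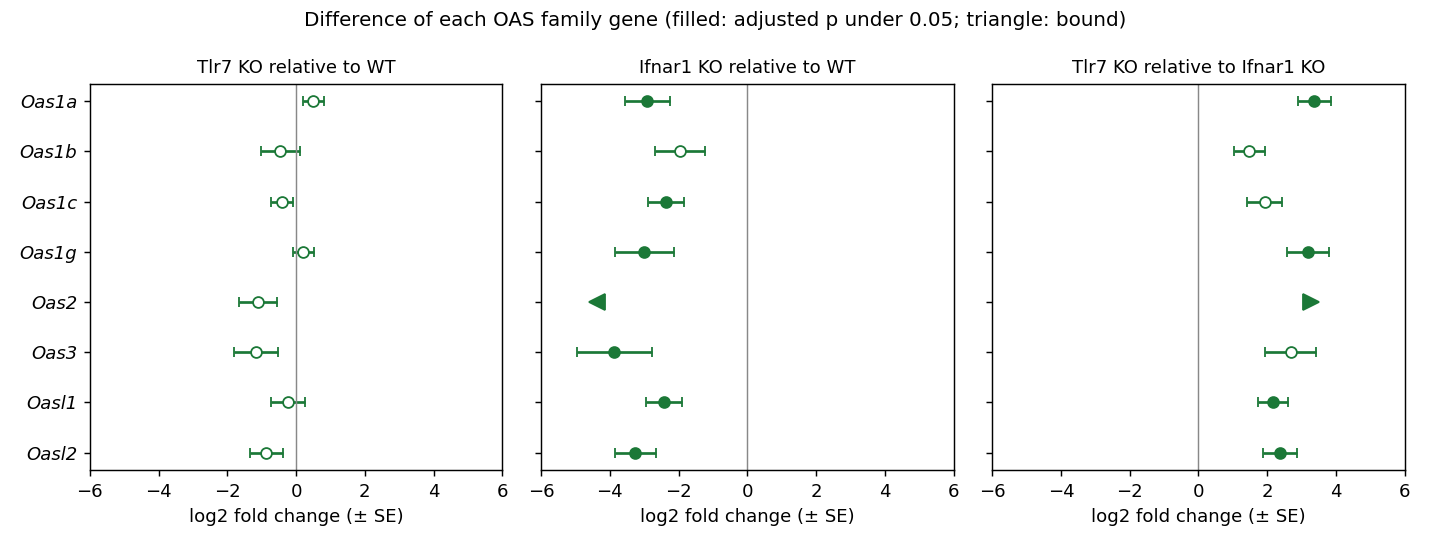
Log2 fold change (horizontal axis, ± SE) of each OAS family gene in *Tlr7* KO relative to WT, in *Ifnar1* KO relative to WT and in *Tlr7* KO relative to *Ifnar1* KO, with filled symbols for adjusted p under 0.05 by edgeR and triangles for the bound of *Oas2* against *Ifnar1* KO. No symbol is filled in the first panel, 7 are filled in the second and 5 in the third, where all lie on the positive side.

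Both knockouts were set against the same WT mice, so the difference between them was tested by comparing *Tlr7* KO with *Ifnar1* KO directly. All 8 members were higher in *Tlr7* KO, and 5 of 8 were DE by the same edgeR test and adjustment. Of all genes tested, 0.926% were DE and higher in *Tlr7* KO and 0.868% were DE and lower. The members' median log2 fold change was 2.53, the same with *Oas2* at its bound, against 0.0011 over all genes. In 8 of 8 members every *Tlr7* KO mouse was above every *Ifnar1* KO mouse, which held for 5.44% of all genes.

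*Oas1a* was higher by 3.37 ± 0.490 on the log2 scale or 10.4-fold (edgeR adjusted p = 0.0112), from 7.84-fold without *Ifnar1* KO 3 to 24.1-fold without *Ifnar1* KO 2. Its highest adjusted p over the 17 settings run was 0.0536, while that of *Oas2* was 0.0468. *Oas1g* was higher by 3.18 ± 0.616 (edgeR adjusted p = 0.0341), from 6.31-fold without *Ifnar1* KO 3 to 28.7-fold without *Ifnar1* KO 2 and with adjusted p up to 0.133 when 1 mouse was left out. *Oas2* was higher by at least 9.61-fold (edgeR adjusted p = 0.0150). *Oasl2* was higher by 2.37 ± 0.501 (adjusted p = 0.0458) and *Oasl1* by 2.17 ± 0.428 (adjusted p = 0.0364 by edgeR). With 1 mouse left out, *Oasl2* ran from 3.94-fold to 7.17-fold and *Oasl1* from 3.56-fold to 5.11-fold, both lowest without *Tlr7* KO 2. Their edgeR adjusted p then reached up to 0.164 and 0.130. *Oas3* (2.69 ± 0.743, edgeR adjusted p = 0.111), *Oas1c* (1.93 ± 0.503, edgeR adjusted p = 0.0934) and *Oas1b* (1.48 ± 0.456, edgeR adjusted p = 0.145) did not pass, although all 8 had an unadjusted p under 0.05. With 1 mouse left out, *Oas3* ran from 4.54-fold without *Ifnar1* KO 1 to 25.3-fold without *Ifnar1* KO 2, and *Oas1c* from 2.95-fold to 6.40-fold without the same mice.

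Leaving out 1 mouse at a time gave 1 to 7 DE members, with 1 without *Ifnar1* KO 1, 2 without *Ifnar1* KO 3 or any of the *Tlr7* KO mice 1, 3 and 5, 3 without *Tlr7* KO 4, 4 without *Tlr7* KO 2 and 7 without *Ifnar1* KO 2. The share of all genes DE and higher moved with this count, from 0.258% without *Ifnar1* KO 1 to 3.72% without *Ifnar1* KO 2. All 8 members stayed higher in *Tlr7* KO each time. Of 16 leukocyte markers, 15 had higher estimates in *Tlr7* KO than in *Ifnar1* KO (median log2 fold change 0.85), none was DE and higher, and 1, *Jchain* of plasma cells, was DE and lower. Without *Ifnar1* KO 2, 4 of the 16 were DE and higher in *Tlr7* KO. The sum over all 16 was 309 ± 41.2 CPM in *Tlr7* KO (mean ± SD, n = 5) and 350 ± 144 CPM in *Ifnar1* KO (n = 3). *Jchain* gave 124 CPM of the first mean and 252 CPM of the second, and *Lyz2*, a gene of macrophages and neutrophils, 134 and 65.9 CPM. Over the other 15 markers it was 158 to 232 CPM in *Tlr7* KO (186 ± 28.1) and 50.3 to 163 CPM in *Ifnar1* KO (97.5 ± 58.9), and the groups overlapped only through *Ifnar1* KO 2. *Lyz2* made up most of this sum, and none of the 15 was DE (edgeR adjusted p from 0.126 for *Ncr1* to 0.944 for *Siglech*). This split of the sum was chosen after the values were seen. The part of leukocytes in the members' differences was not tested.

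**Figure D3:**
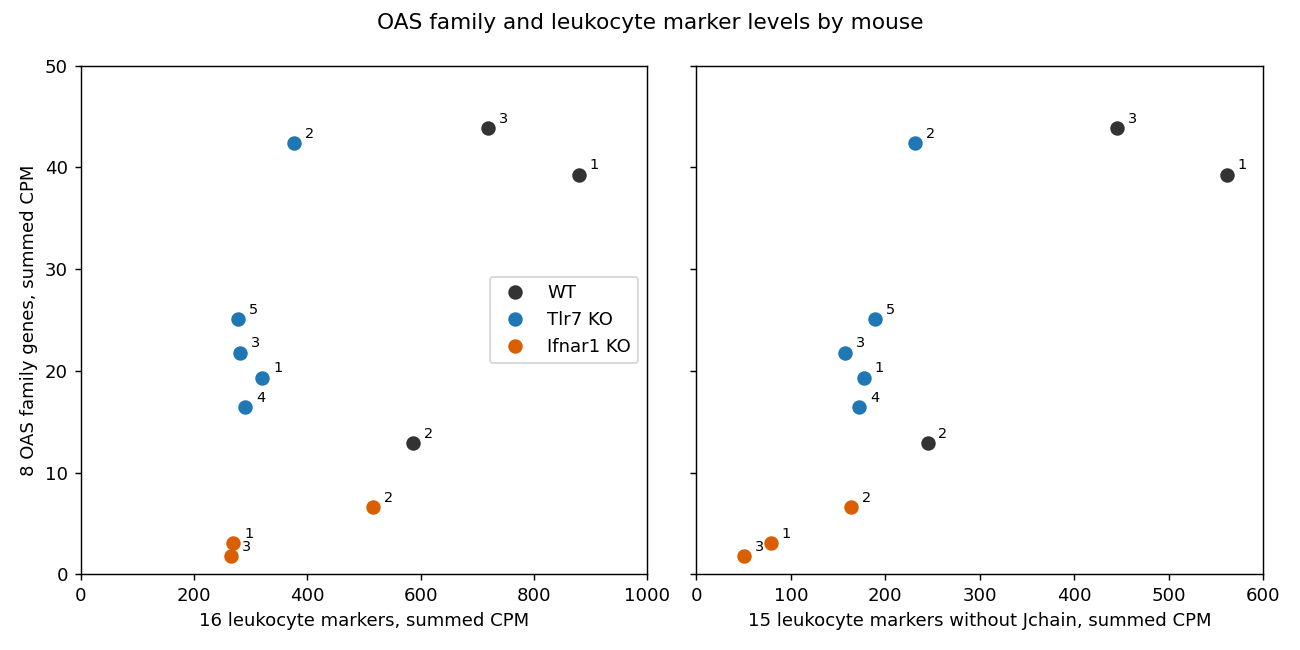
Summed CPM of the 8 OAS family genes (vertical axis) against summed CPM of 16 leukocyte markers (horizontal axis, left) or of the 15 without *Jchain* (right), 1 numbered point per mouse, coloured by group. *Ifnar1* KO mice lie at 1.80 to 6.58 CPM for the family and *Tlr7* KO mice at 16.4 to 42.4 CPM, with leukocyte sums of 265 to 516 and 277 to 377 CPM on the left but 50.3 to 163 and 158 to 232 CPM on the right.

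The make-up of the family signal is given as shares. In WT, *Oasl2* took 41.6% to 46.6% of the family's summed CPM and *Oas1a* 15.96% to 28.1%. In *Tlr7* KO, *Oas1a* took 30.5% to 41.2% and *Oasl2* 24.6% to 37.2%, so neither share overlapped between WT and *Tlr7* KO. Both are shares of the same sum and so not independent, and in CPM both genes overlapped between these groups. *Oas1g* took 3.89% to 6.27% in WT and 4.81% to 10.1% in *Tlr7* KO, and *Oas3* 2.64% to 9.66% and 2.76% to 6.07%. The shares of *Oas1a* and *Oas1g* rest in part on reads that match both genes. In *Ifnar1* KO the family summed to only 43 to 176 counts a library, *Oasl2* took 36.9% to 50.6% and *Oasl1* 7.39% to 23.3%. These shares are a description, chosen after the values were seen, and were not tested.

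**Figure D4:**
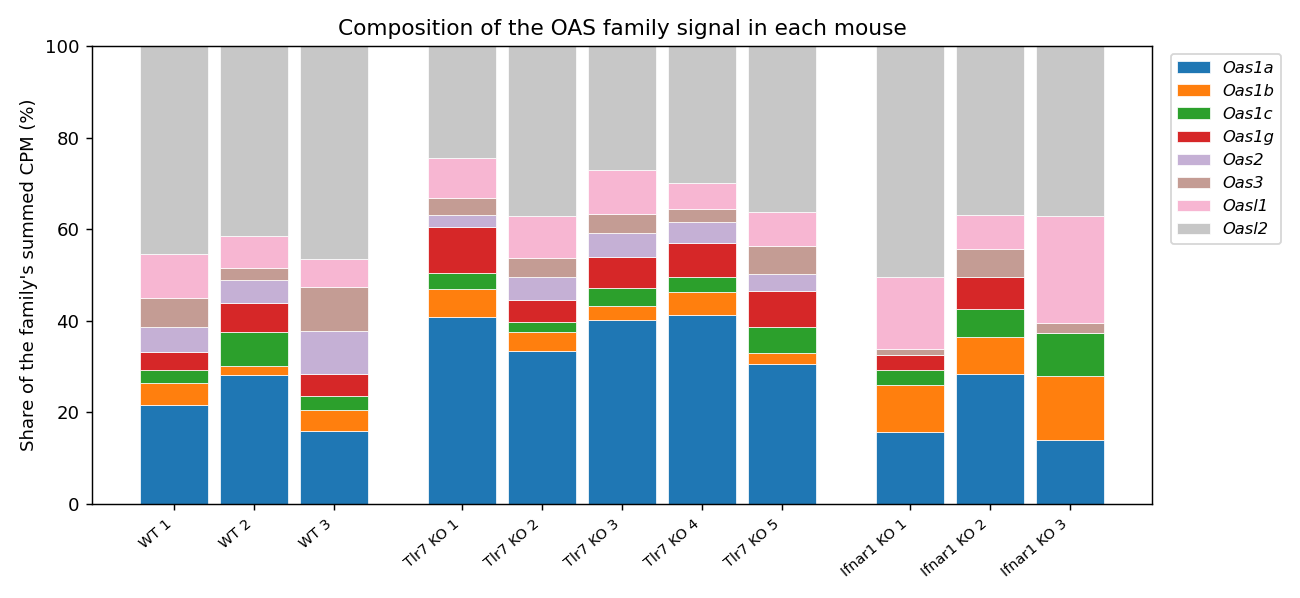
Share of the family's summed CPM (vertical axis, percent) taken by each OAS family gene, 1 stacked bar per mouse, grouped as WT, *Tlr7* KO and *Ifnar1* KO. The *Oas1a* segment covers 30.5% to 41.2% in *Tlr7* KO and 15.96% to 28.1% in WT, and the *Oas2* segment is absent in *Ifnar1* KO.

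Genes around the OAS enzymes were read from lists written from general knowledge. *Pde12* and *Akap7* encode enzymes that can degrade oligoadenylates. *Pde12* had log2 fold changes of 0.26 ± 0.121 in *Tlr7* KO and 0.52 ± 0.164 in *Ifnar1* KO relative to WT (edgeR adjusted p = 0.131 and 0.0635), and *Akap7* had -0.39 ± 0.310 and -0.22 ± 0.301 (edgeR adjusted p = 0.355 and 0.627), so neither passed the test. *Abce1*, an ATPase that recycles ribosomes, rose from 38.7 CPM in WT to 54.7 in *Tlr7* KO (log2 fold change 0.50 ± 0.0689, edgeR adjusted p = 0.00177) and to 60.4 in *Ifnar1* KO (0.62 ± 0.102, edgeR adjusted p = 0.0216), but had 0.0031 and 0.33 with scaling by library size only and was then not DE. The call of *Abce1* in *Ifnar1* KO was also lost when WT 1 was left out, and when *Ifnar1* KO 1 or *Ifnar1* KO 3 was, where no gene was DE. None of these 3 genes was DE between the knockouts.

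Other sensors of double-stranded RNA split in *Ifnar1* KO. Of 10 genes, 3 were DE and lower, against 12.4% of all genes tested: *Zbp1* (-3.58 ± 0.757), *Dhx58* (-2.29 ± 0.480) and *Ddx58*, which encodes RIG-I (-1.48 ± 0.342). Leaving out WT 2 gave 7 (20.2% of all genes), and dropping any 1 of WT 1, WT 3, *Ifnar1* KO 1 and *Ifnar1* KO 3 gave 0. *Mavs*, the adaptor of RIG-I, was higher in both *Ifnar1* KO (0.58 ± 0.0962) and *Tlr7* KO (0.40 ± 0.0723), but with scaling by library size only it was not DE, at 0.27 and -0.10. Its call in *Ifnar1* KO was also lost when WT 1 was left out, and when *Ifnar1* KO 1 or *Ifnar1* KO 3 was, where no gene was DE. *Mavs* was the single DE gene of the list in *Tlr7* KO. Without WT 2, 3 genes of the list were DE and lower there and 2 higher, and with scaling by library size only *Zbp1* (-2.08) and *Tlr3* (-1.01) were DE and lower. Of all genes, 24.9% were DE and lower and 22.9% higher without WT 2, and 30.7% were DE and lower with scaling by library size only. *Adar*, which edits double-stranded RNA, had -1.01 ± 0.429 in *Ifnar1* KO (edgeR adjusted p = 0.131) and *Ticam1*, the adaptor of TLR3, had 0.19 ± 0.194. Medians were 0.18 in *Tlr7* KO and -1.02 in *Ifnar1* KO. With scaling by library size only, all 10 estimates in *Tlr7* KO were negative, from -2.08 to -0.10. Between the knockouts *Ddx58* (1.33 ± 0.196) and *Dhx58* (1.72 ± 0.269) were DE and higher in *Tlr7* KO, and none was lower. Of all genes tested, 0.926% were DE and higher there. With 1 mouse left out, the list gave 1 (without *Ifnar1* KO 1 or 3) to 6 DE and higher (without *Ifnar1* KO 2, where 3.72% of all genes were).

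Along the type I interferon pathway, 9 of 12 genes were DE and lower when *Ifnar1* was knocked out (median -1.52) and 5 of 12 when *Tlr7* was (median -0.45), against 12.4% and 17.4% of all genes tested, with none higher. *Ifnar1* itself, the edited gene, was 1 of the 9 (-0.61, edgeR adjusted p = 0.0485). The first count was 0 without WT 1, *Ifnar1* KO 1 or *Ifnar1* KO 3, 1 without WT 3 and 10 without WT 2. The second was 1 without WT 1 or WT 3, 2 without *Tlr7* KO 3 or 4, 3 without *Tlr7* KO 1 and 7 without WT 2. Without WT 2, 20.2% of all genes were DE and lower in *Ifnar1* KO and 24.9% in *Tlr7* KO. *Irf7*, a driver of interferon transcription, fell by 4.09 ± 0.549 in *Ifnar1* KO, *Socs1* by 3.32 ± 0.735, and *Usp18*, a brake on IFNAR signalling, had -2.72 ± 0.721, which was also DE. In *Tlr7* KO *Irf1* fell by 1.08 ± 0.350, *Irf2* by 0.83 ± 0.191 and *Ifnar2* by 0.66 ± 0.173. *Stat2* (-0.045 ± 0.324), *Irf9* (-0.19 ± 0.211) and *Usp18* (0.64 ± 0.478) were not DE there. *Jak1*, abundant at 61.5 CPM in WT, was not DE in any of the comparisons. *Irf7* (3.67 ± 0.479), *Usp18* (3.34 ± 0.505), *Irf9* (1.45 ± 0.232) and *Stat2* (1.31 ± 0.254) were DE and higher in *Tlr7* KO than in *Ifnar1* KO. These 4 of 12 stood against 0.926% of all genes. They became 1 without *Ifnar1* KO 1, 2 without *Tlr7* KO 5 and 5 without *Ifnar1* KO 2, where 0.258%, 0.33% and 3.72% of all genes were DE and higher. Interferon transcripts themselves were hardly detected. Of 18 interferon genes, only *Ifng* is listed in the first table, at 0 to 0.339 CPM. The second table lists all 18, and 16 of them had no count in any library. *Ifnl3* had 1 count in 1 library, and *Ifng* had at most 9 counts in a library.

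Other interferon-stimulated genes were read beside the OAS family. In *Ifnar1* KO 19 of 21 were DE and lower (median -2.99), against 12.4% of all genes tested. In *Tlr7* KO 4 of 21 were (median -0.74), a share close to the 17.4% of all genes tested. Between the knockouts 15 of 21 were DE and higher in *Tlr7* KO than in *Ifnar1* KO (median 2.52), against 0.926% of all genes. None was DE in the opposite direction in these comparisons. The count of 19 was 0 without WT 1, *Ifnar1* KO 1 or *Ifnar1* KO 3, 1 without WT 3 and 21 without WT 2. The count of 15 was 2 without *Ifnar1* KO 1, 4 to 10 without *Ifnar1* KO 3 or any 1 of the *Tlr7* KO mice, and 21 without *Ifnar1* KO 2. The share of all genes DE and higher was 0.258%, 0.294% to 0.524% and 3.72% in the same order. *Mx1* (-4.10 ± 1.08), *Ifit1* (-4.09 ± 0.836), *Ifit3* (-3.78 ± 0.707) and *Ifit2* (-3.53 ± 0.705), antiviral effectors, had the largest DE falls in *Ifnar1* KO. The abundant *Ifi27l2a* and *Lgals3bp* went from 39.7 and 36.3 CPM in WT to 3.54 and 4.78 CPM in *Ifnar1* KO and had 20.6 and 27.5 CPM in *Tlr7* KO. The 4 genes DE in *Tlr7* KO were *Helz2* (-1.84 ± 0.467), *Samd9l* (-1.49 ± 0.436), *Epsti1* (-1.38 ± 0.407) and *Ifitm3* (-0.82 ± 0.234). That count was 0 without WT 1 or WT 3, 16 without WT 2, and 9 with scaling by library size only. Of all genes, 10% and 9.36% were DE and lower without WT 1 and WT 3, 24.9% without WT 2 and 30.7% with scaling by library size only.

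**Figure D5:**
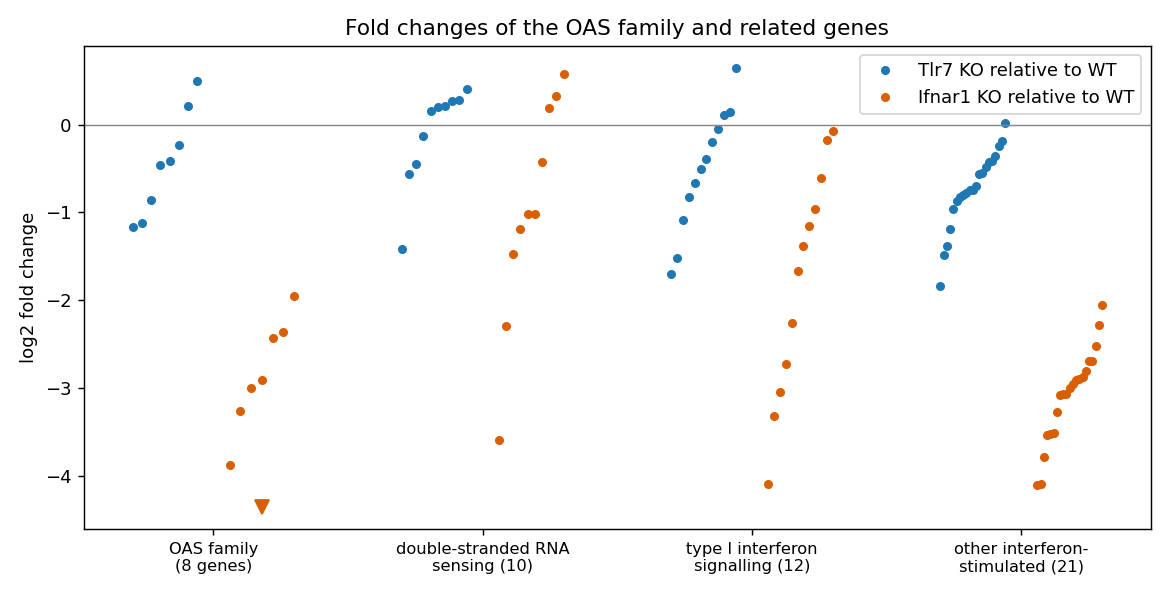
Log2 fold change relative to WT (vertical axis) of each gene of the OAS family and of 3 lists, in *Tlr7* KO and *Ifnar1* KO, with genes sorted within each list and a triangle for the bound of *Oas2*. The OAS family and the 21 other interferon-stimulated genes lie at -1.95 or lower in *Ifnar1* KO, with medians of -2.95 and -2.99, whereas the 10 genes of double-stranded RNA sensing lie on both sides of 0.

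Levels of the members were correlated across mice. Over 11 libraries, the 28 pairs of members had Pearson r of 0.594 to 0.983 in log2 CPM (median 0.878). With group means removed, r was 0.171 to 0.916 (median 0.758), highest for *Oas1a* with *Oas1g* (0.916), which share reads, then *Oas3* with *Oasl2* (0.889), and lowest for *Oas1b* with *Oas1c* (0.171). The points share depth and scaling within a library. Ranked by r with the members' mean standardized log2 CPM over the 11 libraries, the most similar of 13929 other genes were *Ifit1* (0.993), *Ifit3* (0.992), *Bst2* (0.988), *Rtp4* (0.988), *Irf9* (0.987), *Irf7* (0.986), *Lgals3bp* (0.985), *Isg15* (0.984), *Mx1* (0.975) and *Slfn1* (0.974). None of these 10 was DE in *Tlr7* KO relative to WT, and all 10 were DE and lower in *Ifnar1* KO. As they were picked for likeness to the members over the same libraries, these calls are a description.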

How the data were processed

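RNA of whole lacrimal glands was sequenced by the authors on an Illumina HiSeq instrument, converted with bcl2fastq, aligned to mm10 with HISAT2 2.1.0 and, in parallel, quantified against transcripts with salmon and summed to genes with tximport. Of the deposited tables, the first holds estimated counts, taken to be those of salmon, of 19058 genes as whole numbers. Its name calls them normalized, but its totals differ between libraries and it was analysed as counts. The second table deposited by the authors holds raw counts of 39017 genes (12233586 to 16621073 per library) and was an alternative. Columns were matched to samples by name, and 1 further column with no sample was not used.

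Genes with at least 30 counts summed over WT mice were tested with edgeR 4.0.16 (R 4.3.3; TMM, quasi-likelihood F test, two-sided, separate fits of 2 groups, Benjamini-Hochberg adjustment, threshold 0.05). CPM used TMM factors over all libraries, and log2 CPM a prior count of 2. A library with no count was bounded at 3 counts. Alternatives were DESeq2 1.42.0, its size factors, library size only, other filters, a single fit, the second table, the replicate number as a block and each mouse left out. The steps were tested on simulated data. Of simulated log2 changes of 1, 51% were called for WT against *Tlr7* KO, 28% for WT against *Ifnar1* KO and 64.3% between the knockouts. Of simulated log2 changes of 2, 84%, 80% and 84.3% were called, so smaller changes were often missed. The members and lists were chosen with earlier results of these data known. Named were the members, the targeted genes, 3 genes of oligoadenylate turnover and translation, from each other list, 4 DE genes by size of change and the 2 most abundant genes, and the 10 genes most like the members; names outside this rule were chosen after their values were seen. Some genes these rules name are not reported here. Marker lists were written from general knowledge. Positions come from GENCODE M21 and promoters from RefSeq, where 6 of 8 members matched by symbol.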

Additional observations from a re-analysis of the deposited data

Results flagged for a closer look

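*Oas1a* in *Tlr7* KO stood out for 1 sample far from the others of its group. *Tlr7* KO 2 had 14.1 CPM, while the next highest mouse, *Tlr7* KO 3, had 8.77 CPM and the lowest 6.77 CPM, a gap of 0.729 of the group's range. The 8 members were examined in this way in the *Tlr7* KO group, the only one large enough, and *Oas1a* was the 1 that stood out. Chance alone gives such a gap in about 1 of 20 groups. *Tlr7* KO 2 was also the highest of its group for 7 of 8 members, and its sum over 21 other interferon-stimulated genes was 207 CPM against 95.6 to 143 CPM in the other *Tlr7* KO mice. Leukocyte and adipocyte markers were highest in this mouse too. Its sum over 16 leukocyte markers was 377 CPM against 277 to 320 CPM, or 232 against 158 to 189 CPM without *Jchain*. Its sum over 4 adipocyte markers was 31.1 CPM against 6.49 to 15.8 CPM. Their part was not tested. Without this mouse no member was DE between WT and *Tlr7* KO, where 16.9% of all genes were DE and lower and 14.0% DE and higher. Between the knockouts 4 of 8 were then DE and higher in *Tlr7* KO, against 0.524% of all genes.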

How the results depend on the processing

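The 8 members were lower in *Ifnar1* KO than in WT, and higher in *Tlr7* KO than in *Ifnar1* KO, under all alternatives run. DE counts moved more. For WT against *Tlr7* KO the count of 0 became 3 with library size only, where the share of all genes DE and lower went from 17.4% to 30.7%, and ranged from 0 to 3 when each mouse was left out. For WT against *Ifnar1* KO the count of 7 was 6 to 8 under other scalings, filters, tools, tables and a single fit, and ranged from 0 to 8 when each mouse was left out. The share of all genes DE and lower was 12.4%. In those other settings it ran from 8.69% with no filter on low counts to 19.1% in the single fit, and over the mice left out from 0 to 20.2%. With the replicate block the count of members was 0, as was the count over all genes. Same-numbered mice did not deviate together (r -0.44 to -0.16), so the numbers were not taken as pairs. Between the knockouts the count of 5 became 3 in the single fit and 3 in the second table, was 7 with DESeq2 and with the replicate block (r 0.065 to 0.34), and ranged from 1 to 7 when each mouse was left out. The share of all genes DE and higher there was 0.926%, and 0.301% in the single fit, 0.973% in the second table, 2.35% with DESeq2 and 2.64% with the block.

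Signs of members turned only for WT against *Tlr7* KO. With library size only, *Oas1a* had -0.085 and *Oas1g* -0.38. *Oasl1* had 0.11 with the replicate block and ranged from -0.62 to 0.23 over the mice left out, and *Oas1g* from -0.074 to 0.55. The cause was not tested. For the same comparison, other interferon-stimulated genes numbered 4 DE lower, 9 with library size only and 0 with the replicate block, and 0 to 16 over the mice left out. Leukocyte markers numbered 12 DE lower, 0 with the block, and 6 to 15 over the mice left out. The share of all genes DE and lower was 17.4%, 30.7% with library size only, 0.0861% with the block, and 9.36% to 24.9% over the mice left out. The summed leukocyte markers, as a log2 ratio of means of *Tlr7* KO to *Ifnar1* KO, went from -0.18 to 0.93 without *Jchain*, an alternative chosen after seeing the data. In *Ifnar1* KO, 6 of 8 members had at most 14 counts per library, which limits their precision.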
